A study of Mus musculus with 2 samples.

Results

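The miR-290 to miR-295 cluster was examined in 2 regions of untreated ICR mouse embryos at E13.5, the 3rd mammary gland (the gland below) and the inter mammary gland region, a piece of flank that lies between the 3rd mammary gland and the next one behind it (the flank below). Its members were the miRNAs that the arrays name mmu-miR-290-5p, mmu-miR-290-3p, mmu-miR-291a-5p, mmu-miR-291a-3p, mmu-miR-292-5p, mmu-miR-292-3p, mmu-miR-293, mmu-miR-294 and mmu-miR-295. They were chosen by name and make up 9 of the 696 mouse miRNAs on the arrays. For either region 100 ng of total RNA carried the Cy3 label and was hybridized to 1 Agilent 1-colour miRNA array, both on the same slide, so there are no replicates and no test between the regions. The number of embryos behind each RNA sample is not given in the sources used here, and no sorting of cells is described. In such tissue samples, fewer cells that express a miRNA and less of it per cell cannot be told apart.

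The cluster is transcribed as 1 precursor RNA that is cut into several hairpins, and each hairpin can give a mature miRNA from its 5′ arm (5p) and from its 3′ arm (3p). It is known as the most abundant group of miRNAs in mouse embryonic stem cells, and it is also made in the early embryo, in the placenta and in primordial germ cells. Several of its 3p strands share the seed, bases 2 to 8 of the mature miRNA, by which target mRNAs are recognised, and these strands are known to repress inhibitors of the step from G1 to S phase. The cluster is switched off as stem cells differentiate. The miR-302 cluster, another group of stem cell miRNAs, carries the same seed in several strands.

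In the RefSeq annotation of mouse build GRCm38.p6 the hairpins of the members lie on the plus strand of chromosome 7, at chr7:3218626-3220841. A further 2 hairpins, Mir290b and Mir292b, are annotated on the minus strand within it. This span of 2216 bases overlaps the lncRNA gene D7Ertd143e and the protein-coding gene Nlrp12. Mature sequences were found there for 8 of the 9 members, and miR-292-3p was not matched. The sequences of the 3p strands are shown, with the seed in capitals, because several of them share a seed. The names miR-293, miR-294 and miR-295 of the arrays stand for the 3p strands of those hairpins.
miR-290-3p: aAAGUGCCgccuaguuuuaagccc
miR-291a-3p: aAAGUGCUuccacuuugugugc
miR-293: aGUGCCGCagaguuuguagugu
miR-294: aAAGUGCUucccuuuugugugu
miR-295: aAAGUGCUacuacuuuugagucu
miR-291a-3p, miR-294 and miR-295 carry the seed AAGUGCU, which 5 mature miRNAs of the table hold (miR-302b-3p and miR-302d-3p are the others). No sequence was matched for miR-302a-3p, so it could not be counted. miR-290-3p differs in its seed, AAGUGCC, and miR-293 has the seed GUGCCGC, shifted against that of miR-290-3p within a run of 8 bases that both strands contain.

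The 5p strands have other seeds. They are shown, with the seed in capitals, because the cluster was detected through 2 of them alone.
miR-290-5p: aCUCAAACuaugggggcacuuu
miR-292-5p: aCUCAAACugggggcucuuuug
miR-291a-5p: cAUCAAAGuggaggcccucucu
miR-290-5p and miR-292-5p share the seed CUCAAAC and their first 9 bases. The same seed is carried by 1 further strand of the table, miR-293-5p. miR-291a-5p has the seed AUCAAAG, as has miR-291b-5p.

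Of the 9 members, 2 of the 5p strands were detected by the rule given below, and none of the 3p strands. With outlier spots left out, miR-290-5p was dim but above the negative control spots on most of its spots in both regions, and its signal was higher in the flank. miR-292-5p was seen in the flank alone, and mainly on 1 of its 4 probes. The 6 3p strands, which include the defining miRNAs of embryonic stem cells, and miR-291a-5p lay at the level of the negative controls in both regions. Each member was printed as 20 spots per array, in 2 to 4 probes, and 2 member spots on the gland array and 4 on the other were left out as outliers. All signals below are the background-subtracted intensity in arbitrary units on a linear scale, averaged over the spots of a probe and then over the probes of a miRNA, and the number of arrays limits their precision. Probes differ in how strongly they bind, so that signals of different miRNAs do not compare as amounts of RNA.

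The negative control spots are printed sequences without a mouse target and show the background of the same hybridization. On the gland array they had a mean of 3.81 ± 5.28 (SD over 432 spots) with the brightest spot at 17.3. On that of the flank the mean was 2.23 ± 5.07 (SD over 428 spots) and the brightest spot 19.2. They are of 7 kinds, whose means ran from 0.953 to 8.72 in the gland and from -0.338 to 7.0 in the flank. The array of the gland thus had the higher background by this measure. On the flank array 1 negative control spot among the outliers left out was at 46.6, the only one of the 434 above 19.2, and counts set against the brightest control spot there depend on leaving it out. No negative control spot that was kept was well above background by the software's flag on either array.

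**Figure D1:**
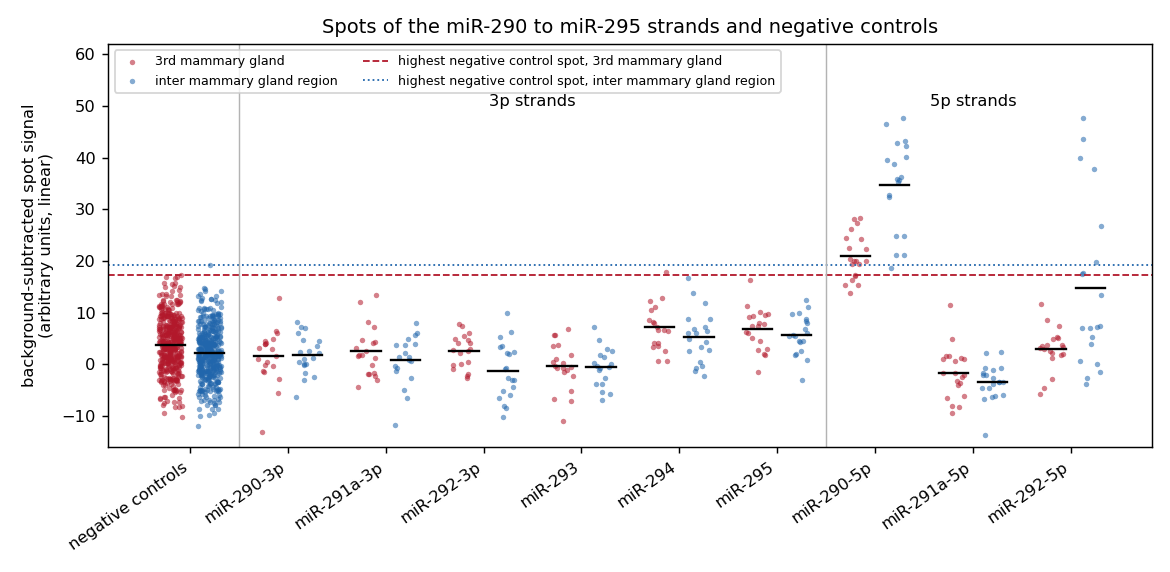
Background-subtracted signal (linear, arbitrary units) of every spot of the 9 members and of the negative controls, with a point per spot and a black bar at the mean over spots, for the gland array (red) and the flank array (blue). Dashed and dotted lines mark the highest negative control spot, 17.3 and 19.2. Of the 3p strands 1 spot, of miR-294 on the gland array, lies above the line of its own array. miR-290-5p lies mostly above the line of the same array on both arrays, and miR-292-5p on part of its spots on the flank array.

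A probe was taken as detected where well above background on over 50% of its spots, and a miRNA where any of its probes was. By this rule 0 of the 9 members were detected in the gland, where 42.5% of all 696 miRNAs were. In the flank 2 of the 9 were detected, miR-290-5p and miR-292-5p, against 43.1% of all. The call that Feature Extraction makes per miRNA gave miR-290-5p as detected on both arrays, and miR-292-5p in the flank. By that call 48.1% of all miRNAs were detected in the gland and 48% in the flank.

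The spots of the 6 3p strands were compared first with the negative controls. In the gland 1 of 118 spots (0.847%), a spot of miR-294, was above all negative control spots, and in the flank 0 of 117. Of all miRNA spots 42.5% were above all negative control spots in the gland and 41% in the flank. No spot of a 3p strand was well above background on either array. A weaker flag of the software, positive and significant signal, was set for 36 of the 118 spots in the gland (30.5%) and 30 of the 117 in the flank (25.6%). It was also set for 36.3% and 24.1% of the negative control spots, and for 58.6% and 55.1% of all miRNA spots. Most of the flagged 3p spots were of miR-294 and miR-295, whose counts are given below. Of the 16 probes of the 3p strands, 0 had a mean above that of the brightest kind of negative control on either array.

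Within the 3p strands miR-294 and miR-295, which are among the strands most used as stem cell markers, lay highest against the negative controls. The signal of miR-294 was 7.09 ± 4.46 (SD over 19 spots) in the gland, with spots from 0.574 to 17.9 and a median of 6.69. In the flank it was 5.32 ± 5.07 (SD over 20 spots), with spots from -2.27 to 16.7 and a median of 5.44. The spots of the regions overlapped over nearly their whole range. That of miR-295 was 6.78 ± 4.06 (SD over 20 spots) in the gland, with a lowest spot of -1.53, a median of 7.40 and a highest of 16.3. In the flank it was 5.75 ± 3.81 (SD over 20 spots), with a lowest spot of -3.08, a median of 5.57 and a highest of 12.5. Both strands lay 0.56 to 0.70 SD of the negative control spots above their mean, and below the mean of the brightest kind of negative control. The positive and significant flag was set for 12 of 19 spots of miR-294 and 13 of 20 of miR-295 in the gland. In the flank it was set for 10 of 20 spots of either strand. These shares were above those of all negative control spots (36.3% and 24.1%). They were below those of the brightest kind of negative control (81.0% and 58.5%). The signals of both strands were higher than those of 82.2% to 85.1% of the other miRNAs that were not detected on either array, of which there were 384 with these strands counted. A level this close to the negative controls was not distinguishable from background on these arrays, which does not show that the strands are absent.

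The other 3p strands lay lower. In the gland the signal was 1.56 ± 5.26 for miR-290-3p (SD over 20 spots), 2.62 ± 4.85 for miR-291a-3p (20 spots), 2.46 ± 3.25 for miR-292-3p (19 spots) and -0.423 ± 4.52 for miR-293 (20 spots). In the flank it was 1.86 ± 3.77 for miR-290-3p (20 spots), 1.07 ± 4.80 for miR-291a-3p (19 spots), -1.23 ± 5.45 for miR-292-3p (20 spots) and -0.595 ± 3.74 for miR-293 (18 spots). All of these means were below that of the negative control spots of the same array.

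miR-290-5p, the 5p strand of the first hairpin, was read by 4 probes. In the gland its signal was 20.9 ± 4.44 (SD over 20 spots), with the lowest spot at 13.7, a median of 19.99 and the highest at 28.2. In the flank it was 34.9 ± 8.85 (SD over 19 spots), with the lowest spot at 18.6, a median of 35.8 and the highest at 47.7. Of its spots 14 of 20 were above all negative control spots in the gland and 18 of 19 in the flank. With outlier spots kept these counts were 14 of 20 in the gland and 1 of 20 in the flank, where the control spot at 46.6 then set the limit. All 4 probes had means above every kind of negative control on both arrays. Its signal lay 3.23 SD of the negative control spots above their mean in the gland and 6.44 SD in the flank. The regions overlapped over the probes together, and 0 of its 20 spots in the gland and 14 of 19 in the flank were well above background.

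The probes of miR-290-5p were unequal. Probe 1 gave 18.3 ± 2.99 (SD over 5 spots) in the gland and 22.1 ± 2.68 (5 spots) in the flank, and the spots of the regions overlapped. Probe 2 gave 22.1 ± 4.79 (5 spots) and 38.3 ± 3.65 (4 spots, with 1 outlier left out). Probe 3 gave 19.1 ± 1.18 and 40.04 ± 4.48 (5 spots each), and probe 4 gave 23.9 ± 5.90 and 39.2 ± 6.63 (5 spots each). For probes 2, 3 and 4 every spot of the flank was brighter than every spot of the gland. Signals of the arrays were then set on a common scale, with the 75th percentile of probes detected on both as the unit. The quotient of the flank over the gland was 1.32 for probe 1, 1.90 for probe 2, 2.29 for probe 3 and 1.79 for probe 4.

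miR-292-5p, the 5p strand of the third hairpin, was read by 4 probes that disagreed. In the gland its signal was 2.98 ± 4.07 (SD over 20 spots), with spots from -5.72 to 11.6 around a median of 3.19, and 0 of 20 spots were above all negative control spots. In the flank it was 14.7 ± 16.3 (SD over 20 spots), with spots from -3.76 to 47.6 around a median of 7.27, and 6 of 20 spots were brighter. Probe 2 alone was detected there, at 39.1 ± 7.88 (5 spots) against 4.86 ± 3.93 (5 spots) in the gland. Probe 3 was at 13.9 ± 6.10 against 2.72 ± 1.14 (5 spots each). Probe 1, at -0.205 ± 4.23 against -1.08 ± 4.79, and probe 4, at 6.06 ± 4.73 against 5.43 ± 2.54, lay at the level of the negative controls in both regions. The value for the whole miRNA therefore rests on 1 or 2 of its probes, whose sequences were not used here.

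**Figure D2:**
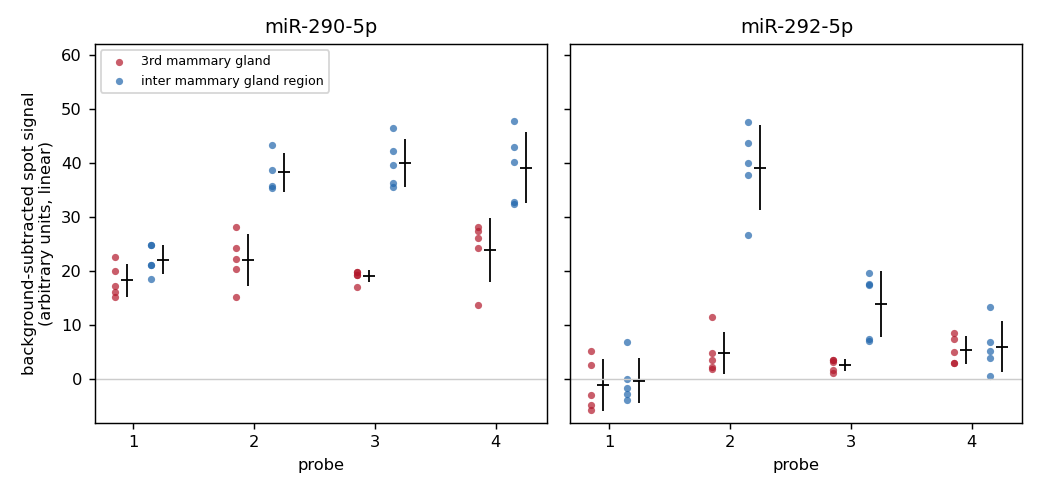
Background-subtracted signal (linear, arbitrary units) of the spots of each of the 4 probes of miR-290-5p (left) and miR-292-5p (right), in the gland (red) and the flank (blue), with the mean and SD over spots in black. Probes 2 to 4 of miR-290-5p and probes 2 and 3 of miR-292-5p are brighter on every spot of the flank, and probe 1 of miR-292-5p is near 0 on both arrays.

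Counted over the cluster, 5 of the 28 member probes had every scaled spot of the flank above every spot of the gland, and all 5 belonged to miR-290-5p and miR-292-5p. The share among the 1937 probes of the arrays was 7.02%. miR-291a-5p, the 5p strand of the hairpin between them, gave no such probe. Its signal was -1.71 ± 4.97 (SD over 20 spots) in the gland and -3.46 ± 3.51 (20 spots) in the flank, the lowest of the 9 members on both arrays.

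Over the miRNA as a whole, the scaled signal of miR-290-5p was 1.83-fold higher in the flank than in the gland. Since miR-290-5p was not detected in the gland by the share of spots, the fold was taken as a lower bound, against the higher of its own signal and that of the dimmest detected probe there (30.7 before scaling). It was then at least 1.25-fold lower in the gland, under the fold of 1.5 used for counts. For miR-292-5p the quotient of the scaled signals was 5.40, but its mean signal in the flank was under the same limit and it has no fold. Thus 0 of the 9 members were called at least 1.5-fold lower in the gland, and 0 were called higher. Of the 312 miRNAs detected on at least 1 array, 9.94% were called lower and 3.21% higher. Only miR-290-5p and miR-292-5p are among these, and as detected in the flank alone they could not be called higher. The other members, detected on neither array, could not be called at all. Over all miRNAs the split of higher to lower calls moved with the scaling, from 10 to 31 here to 19 to 28 without scaling, and the members were called neither way under either.

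The call depended on how detection was decided. With the software's own call, miR-290-5p was detected on both arrays and its ratio of 1.83 counted as lower in the gland, with 9.83% of 346 miRNAs called lower and 4.05% higher. With the dimmest detected miRNA in place of the dimmest detected probe as limit, miR-290-5p (1.83) and miR-292-5p (at least 3.11) both counted as lower, with 12.2% of 312 called lower. The total signal of miR-290-5p in the deposited table was 27.6 (error 4.07) in the gland and 45.2 (error 4.30) in the flank, which is 1.64-fold without scaling. For miR-292-5p the table lists 12.7 (error 2.22) in the flank and 0.1 in the gland, where 0.1 is a stand-in for a miRNA not called detected, so that no fold follows. For the 284 miRNAs detected on both arrays by the share of spots the log2 ratio, gland over flank, had a median of 0.05. Of them 19 (6.69%) had a ratio at or below that of miR-290-5p. miR-290-5p itself is not among the 284, since its gland signal was not detected by that rule, so the sets are unlike.

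Comparing the strands of 1 hairpin, the 5p strand and not the 3p strand was above the negative controls for miR-290 in both regions. For miR-292 this held for the 5p strand in the flank. For miR-291a neither strand was. Over the cluster, 14 of 60 spots of the 5p strands (23.3%) were above all negative control spots in the gland and 24 of 59 (40.7%) in the flank, all of them spots of miR-290-5p and miR-292-5p. Of all miRNA spots 42.5% were above them in the gland and 41% in the flank, so the 5p share did not exceed that of all spots. With outlier spots kept the share of 5p spots was 23.3% in the gland and 3.33% (2 of 60) in the flank, so that the order of the regions turned. For the remaining strands of the locus the arrays hold miR-291b-5p, miR-291b-3p, miR-293*, miR-294* and miR-295*. None of these 5 was detected in either region, and their signals ran from -0.548 to 4.55 in the gland and from -1.97 to 4.64 in the flank.

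A run of G is a further feature of the 5p strands that gave signal, and it is shown in capitals for all 5p strands of the hairpins named in the cluster.
miR-290-5p: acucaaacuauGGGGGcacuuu
miR-291a-5p: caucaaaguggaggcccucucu
miR-292-5p: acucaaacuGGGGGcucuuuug
miR-293-5p: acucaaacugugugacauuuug
miR-294-5p: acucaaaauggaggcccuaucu
miR-295-5p: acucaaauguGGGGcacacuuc
The letters GGGG, searched on the strand of the mature miRNA, are in 188 of the 1679 mature sequences of the table (11.2%). In the cluster they are in miR-290-5p and miR-292-5p, each with a run of 5, and in miR-295-5p with a run of 4. Of the 8 members with a sequence, the other 6 do not hold them. miR-293-5p shares its first 10 bases with miR-292-5p and has no such run. If miR-293*, miR-294* and miR-295* of the arrays are the 5p strands, as their names imply, none of the 3 was detected, whether with a run (miR-295*, at 1.79 in the gland and 3.08 in the flank) or without (miR-293*, at 1.37 and 0.292). A comparison of the ratios of all miRNAs with and without GGGG was void, because a sequence could be assigned to only 74.7% of the 696 names. Counts of these letters by detection, given at the end, have the same limit and are a description only.

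The related families place these values. Of the miR-302 cluster, which includes miR-367, 8 strands are on the arrays, and 0 were detected in either region. The signals of miR-302b, which carries the seed AAGUGCU, were 3.38 in the gland and 1.92 in the flank, and those of miR-302d, with the same seed, were 4.74 and 1.84. Those of miR-302a, whose sequence was not matched, were 4.55 and 1.04. The highest signal of the 8 strands was 4.99 in the gland and 4.36 in the flank, both of miR-367. By contrast the miR-17 family, which drives proliferation in many tissues and whose seed AAAGUGC holds the same 6 letters AAGUGC displaced by a single base, was detected in both regions for all 5 of its members on the arrays. miR-20a gave 3005 in the gland and 2822 in the flank, miR-20b gave 1705 and 1569, miR-106b 1543 and 1317, and miR-93 1184 and 949. miR-17 itself was the dimmest, at 164 and 140. Their median log2 ratio of the gland over the flank was 0.10, with 0 called higher or lower.

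**Figure D3:**
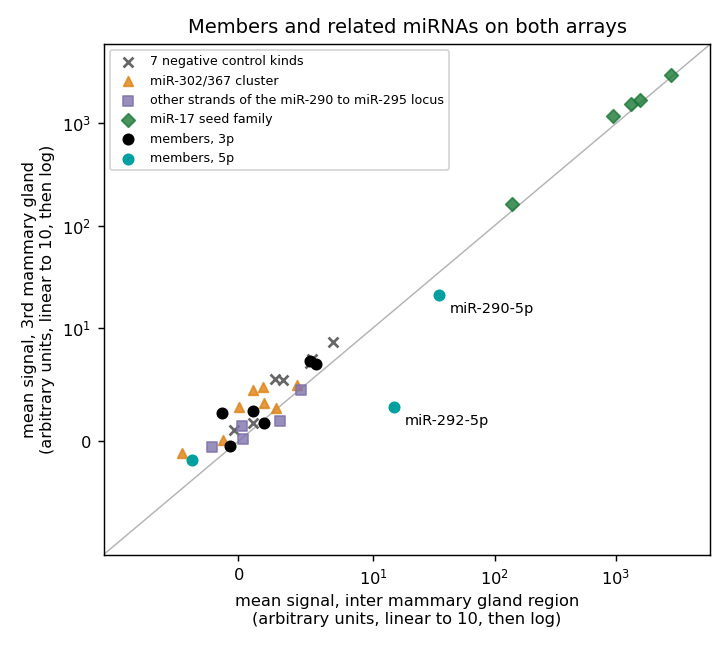
Mean signal of each miRNA on the flank array (horizontal) and the gland array (vertical), with axes linear up to 10 and logarithmic beyond. The grey line marks equal signals before scaling. All 3p members and the strands of the miR-302 cluster lie below the brightest of the 7 kinds of negative control, miR-290-5p (34.9 and 20.9) and miR-292-5p (14.7 and 2.98) lie below the line, and the miR-17 family lies between 140 and 3005.

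The region labels were set beside miRNAs of muscle and epithelium. These lists were chosen with earlier results of these data known, so they are no independent check of the labels. All 4 of miR-1, miR-133a, miR-133b and miR-206, miRNAs of striated muscle, were lower in the gland, by 2.17-fold to 2.69-fold. Of all miRNAs tested 9.94% were called lower. Of 8 epithelial miRNAs 8 were detected in the gland and 7 in the flank, and 1 of the 8, miR-31, was called higher in the gland, against 3.21% of all miRNAs tested. The other 7 were not called, with log2 ratios of gland over flank from -0.31 (miR-203) to 0.51 (miR-200a), so that the epithelial list does not set the regions clearly apart. The flank thus carried more muscle signal in the same direction as miR-290-5p and miR-292-5p, whose relation to it was not tested.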

How the data were processed

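The members and lists were chosen with earlier results of these data known. Scanner images were quantified by the authors in Feature Extraction (10.7.3.1 per the file headers), which subtracts the background of each spot. The deposited spot intensity is linear, can be negative and is not scaled between the arrays. In the deposited table of values is the software's total intensity per miRNA, equal to the totals in the scanner files for all 696 miRNAs. The methods name GeneSpring GX for normalization, without the setting.

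Of 14635 spots per array, those of controls and outliers were removed. Spot means per probe were scaled on an array to its 75th percentile (over probes detected on both) and averaged per miRNA. For a miRNA detected on 1 array, the fold was taken against its dimmer signal or, where brighter, the dimmest detected probe of that array. The fold threshold was 1.5. Named miRNAs were the 9 members, the lists (epithelial, muscle, miR-302 cluster, miR-17 and other strands of the locus) and miRNAs sharing a seed. No member was detected on both arrays, so the planned list of miRNAs with the most similar ratio was not made. Sequences came from RefSeq (GRCm38.p6), credited by name, and a name without an arm was used for G runs only where both arms gave the same answer. The array's grid was built on another assembly (mm9), and no array coordinates were used. The steps were tested on simulated spots. Python 3.11.15, numpy 2.4.6, pandas 2.3.3, scipy 1.17.1, matplotlib 3.10.9, and limma 3.58.1 in R 4.3.3 for normexp (offset 50 on median pixel signals) were used. Alternatives covered scaling, signal, detection, outliers, probe choice, floor, threshold and negative controls.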

Additional observations from a re-analysis of the deposited data

How the results depend on the processing

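No paired analysis was possible because only 1 array was hybridized for either region. In the setting used above 0 members were detected in the gland and 2 in the flank, with 0 called higher and 0 lower. With the software's own call 1 member, miR-290-5p, was detected in the gland, and with every spot of a probe required 1 was left in the flank. The count lower was 1 (miR-290-5p) under the software's own call, under its scaled totals and under the table of values scaled likewise, and 2 (with miR-292-5p) with the dimmest detected miRNA as floor. It stayed 0 under the other 10 of 14 alternatives, of which the threshold of 2 could not have raised it. The count higher stayed 0 under all 14. A higher call needs detection in the gland, which a member had under the software's own call alone, so the other settings could not give one. The share of 3p spots above every negative control spot (0.847% in the gland, 0% in the flank) ran from 0% with the mean plus 3 SD as limit to 2.54% with the spots named NegativeControl alone in the gland, and reached 0.855% in the flank. The share of 5p spots in the flank was 3.33% with outlier spots kept, where 1 outlier control spot at 46.6 set the limit, and 40.7% to 45.8% under the other settings. The quotient of miR-290-5p, flank over gland, stayed above 1 in all 14, from 1.17 after normexp, whose offset draws quotients toward 1, to 2.09 with the mean of the negative controls subtracted, an alternative chosen after seeing the data, as were the separate kinds of negative control. Not all 14 are separate checks of this quotient. The software's call, the floor and the threshold of 2 do not enter it and leave it at 1.83. The software's totals and the table of values are the same data, both at 1.71. Without scaling, or with the 75th percentile of all probes or the median of those detected on both, every log2 ratio of gland over flank moved up by 0.12 to 0.16, and the quotient of miR-290-5p was 1.64 to 1.69. The quotient of miR-292-5p has a gland signal at background as its divisor and ranged from 1.15 after normexp to 132.8 with the stand-in as divisor, so that its size and its side of 1 carry no information on stability. The planned median over members detected on both arrays could not be had, since 0 were, and the filter on dim miRNAs leaves no member. Signal over background limits every value of the cluster.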

Other observations

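miR-290-5p and miR-292-5p belonged to a group of 16 miRNAs that were detected in the flank only. A sequence was assigned to 13 of these, and 7 of the 13 hold the letters GGGG. Among all miRNAs of the arrays 520 had a sequence, and 23 of them (4.42%) hold these letters. Of the 13, the 7 are listed by name. These 7 are miR-290-5p, miR-292-5p, miR-671-5p, miR-680, miR-705, miR-710 and miR-1892, named after their values were seen. Of the 12 miRNAs detected in the gland only, 10 had a sequence and 1, miR-342-5p, holds these letters. Of the 284 detected on both arrays, 214 had a sequence and 5 hold them. Names without an arm were left out where their arms differed in holding GGGG. Which names are missing thus depends on the letters counted, and this limits every count and share given here. The members of the first group were brought together by their signals on these arrays, so this is a description with no test. Its relation to the probes or to the RNA of the regions was not tested.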
